A study of Arabidopsis thaliana with 6 samples.

Results

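The comparison set 1 library from wild type Col-0 Arabidopsis thaliana seedlings kept in the dark beside 1 library from wild type Col-0 seedlings in the light. All genes with at least 10 counts summed over both libraries were taken, 21128 of the 32548 genes listed. The series holds 6 RNA-seq libraries: this pair, 2 of Col-0 and 2 of a line labelled epl1a/b, and those 2 Col-0 libraries enter here only as a yardstick of the spread between libraries of 1 group. Col-0 is the standard laboratory accession, and neither library carries a mutation or transgene per the labels. Both libraries came from total RNA of whole seedlings, which the protocols describe as 2 weeks old, grown on MS medium (a defined mixture of salts) at 23 °C under days of 16 h light and 8 h dark. Foil around the plates made the dark condition. How long the foil stayed on, how old the seedlings were when it was applied, and whether they had seen light before are not given in the sources used here.

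A seedling that grows without light is etiolated: the hypocotyl elongates, an apical hook protects the closed cotyledons, and plastids store the chlorophyll precursor protochlorophyllide instead of building thylakoids. In light, phytochromes and cryptochromes remove the PIF transcription factors and restrain the COP1 ubiquitin ligase, so that HY5 accumulates and greening begins. A plant without light also loses photosynthetic sugar, and then draws on stored oil, starch and protein.

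The dark library held 18798088 counts and the light library 27831231. Counts were scaled with TMM factors (1.08 for dark, 0.925 for light) to CPM (a gene's count relative to its library's scaled total), and the log2 ratio of dark over light used a prior count of 2. A ratio of at least 2-fold is the only call made. With 1 library per condition a difference between the conditions cannot be told apart from a difference between these 2 libraries, so no test was possible. The 95% intervals given with ratios are exact Clopper-Pearson intervals and cover counting error only. In whole seedlings, fewer cells of a type and less RNA per cell cannot be told apart. Between the 2 Col-0 libraries of the other, separately normalised table, 407 of 20876 genes (1.95%) lay past 2-fold. The share was not even over the gene lists: 7 of 24 flavonoid genes, 3 of 21 ethylene, 3 of 23 abscisic acid, 2 of 15 salicylic acid, 2 of 12 leaf senescence and 2 of 11 meristem and flower genes lay past 2-fold there, as did the 1 seed storage gene measured, while none of the antenna, photosystem, aliphatic glucosinolate or jasmonate genes did.

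Of the 21128 genes, 3328 (15.8%) were at least 2-fold higher in the dark library and 4091 (19.4%) at least 2-fold lower. Together 35.1% lay past 2-fold. At 4-fold the shares were 5.2% higher and 6.37% lower, 11.6% together. The median log2 ratio of all genes was −0.01. Scaling by library totals moved that median to 0.21, and then 4341 genes were higher and 3184 lower, so the balance of higher against lower genes depends on the scaling. Ribosomal RNA features took 2.23% of the dark library's counts and 0.294% of the light library's, and the part of this difference in the results was not tested.

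**Figure D1:**
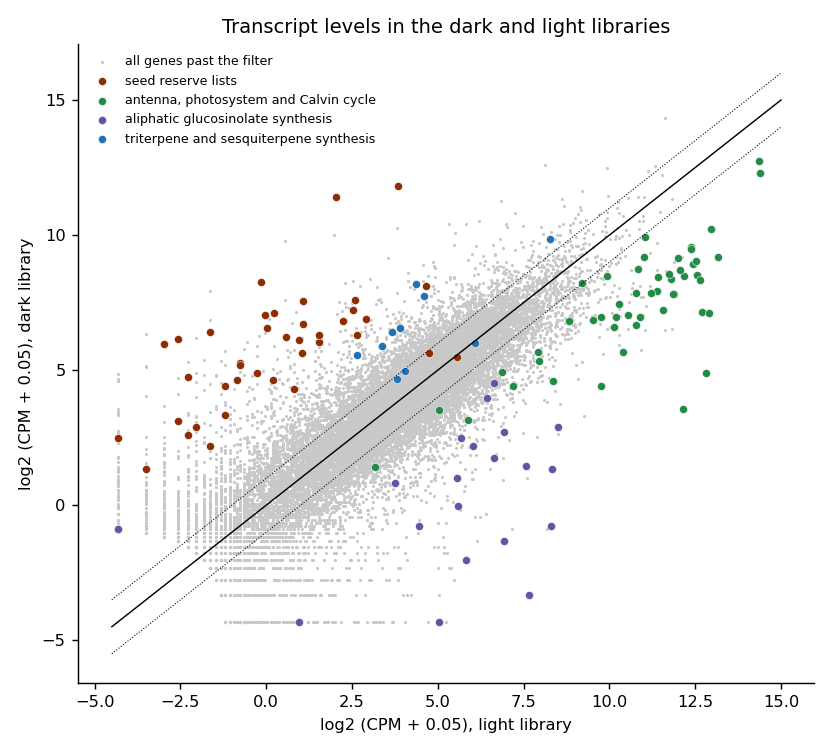
Transcript levels of all 21128 genes in the light library (x axis) and the dark library (y axis), each as log2 of CPM plus 0.05; each grey point is a gene, the solid line marks equal levels and the dotted lines 2-fold. Seed reserve genes lie mostly far above the line, antenna, photosystem and Calvin cycle genes below it, and 19 of 20 aliphatic glucosinolate genes below it.

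Gene lists for 38 processes held 684 entries at 681 loci, of which 646 loci passed the filter. Counts of members past 2-fold are to be read beside the shares over all genes, 15.8% higher and 19.4% lower. The list medians ranged from 6.84 (seed storage proteins) to −4.99 (aliphatic glucosinolate synthesis) on the log2 ratio scale. In 9 lists the median lay at least 2-fold higher in the dark library and in 9 at least 2-fold lower. Under scaling by library totals these numbers were 11 and 8, with the autophagy (1.16) and ethylene (1.03) medians then past 2-fold and that of the HY5 group not.

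**Figure D2:**
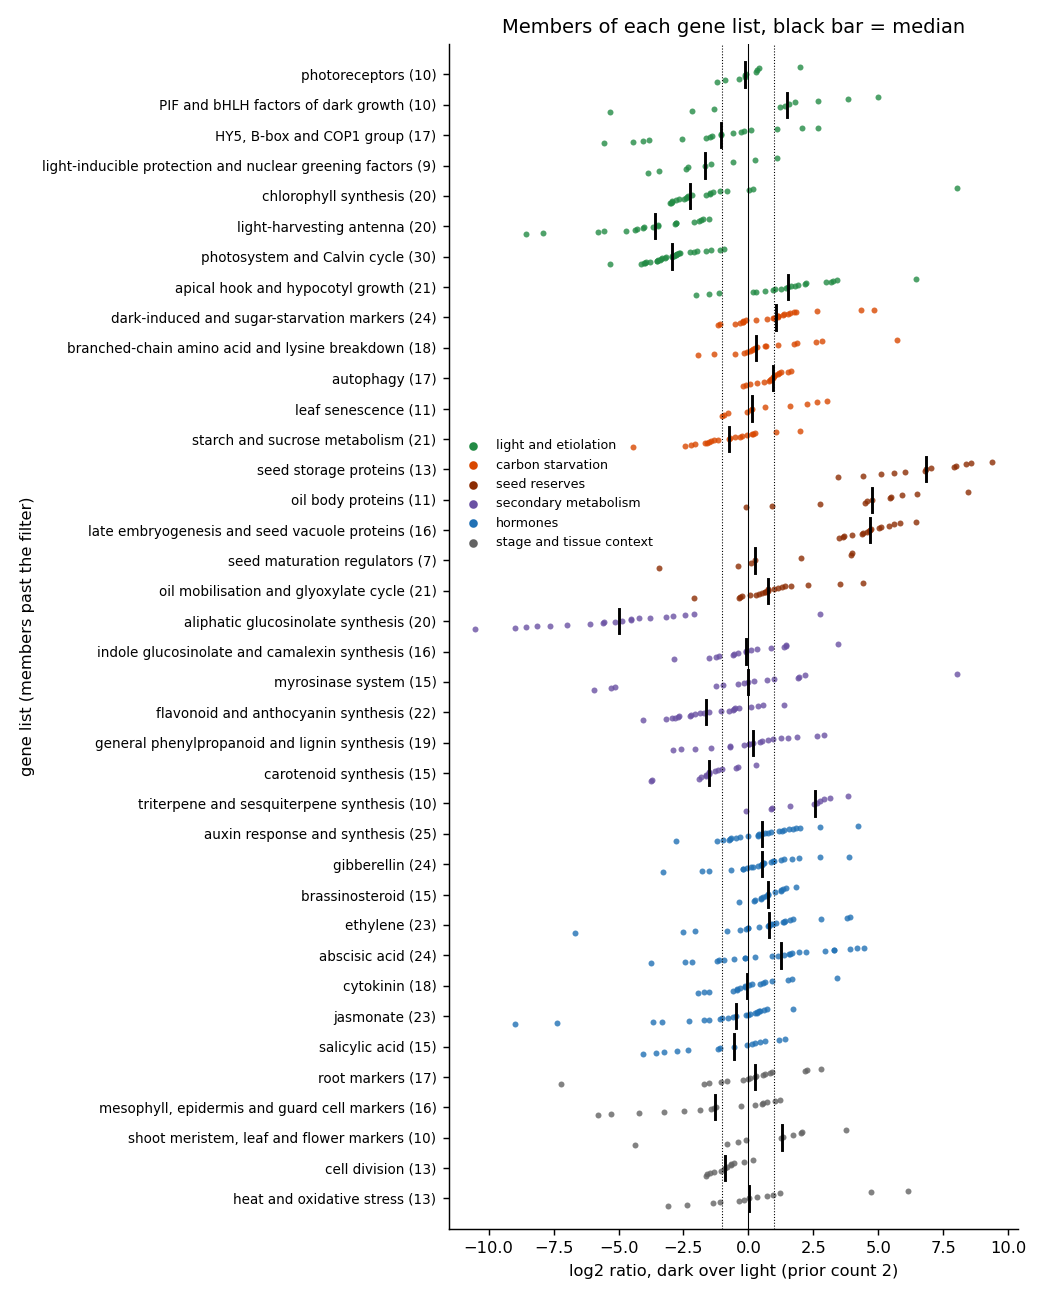
Log2 ratio of dark over light for the members of each gene list that passed the filter, 1 point per gene, with a black bar at the list median; the numbers after the names give the members past the filter. Seed storage proteins have the highest median, 6.84, and aliphatic glucosinolate synthesis the lowest, −4.99, while the autophagy list spans a narrow range with a median of 0.94.

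Photoreceptor transcripts mostly lay within 2-fold. PHYA, which encodes the light-labile phytochrome that senses far-red and very weak light, stood at 880 CPM in the dark and 220 CPM in the light, 4.0-fold higher in the dark (95% interval 3.88 to 4.12). PHYB, the main red-light receptor, stood at 107 and 114 CPM. CRY1 and CRY2, the cryptochromes, stood at 122 and 158 CPM and at 153 and 115 CPM. The blue-light receptor gene PHOT2 was 2.34-fold lower in the dark library (94.3 against 221 CPM), but another counted gene overlaps 38.8% of its exon bases, which leaves its value uncertain. Of the 10 photoreceptor genes, PHYA was thus the 1 higher and PHOT2 the 1 lower.

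The PIF group of bHLH factors split. Of its 10 genes 7 were at least 2-fold higher and 3 at least 2-fold lower, with a median log2 ratio of 1.5. PIF3, a factor that holds back greening in the dark, stood at 128 CPM in the dark and 36.7 CPM in the light (3.49-fold, 95% interval 3.24 to 3.77). PIF1, which also restrains chlorophyll synthesis and germination, stood at 55.4 and 23.9 CPM (2.32-fold, 2.1 to 2.57). The relatives PIL1 and HFR1, the latter an antagonist of the PIFs, had larger ratios. PIL1 stood at 31.3 and 0.894 CPM (35.0-fold, 23.1 to 55.6). HFR1 stood at 78.8 and 5.44 CPM (14.5-fold, 12.2 to 17.4). PIF4, PIF5 and PIF7, which drive growth in shade and warmth, lay the other way. PIF5 was 4.56-fold lower in the dark library, at 23.0 against 105 CPM. PIF7 was represented by 9 counts in the dark and 551 in the light, 48.3-fold lower (25.3 to 106).

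HY5, the bZIP factor that COP1 targets for degradation in darkness, had a transcript level of 31.8 CPM in the dark and 14.8 CPM in the light (2.15-fold higher, 1.89 to 2.45). Its homologue HYH was 2.83-fold lower, at 4.13 against 11.7 CPM. Of the 17 genes of the HY5, B-box and COP1 list, 3 were higher and 10 lower, and the median was −1.06. The B-box genes divided. BBX21, a promoter of photomorphogenesis, stood at 265 and 62.6 CPM (4.23-fold higher, 4.0 to 4.47). BBX25, a repressor of it, stood at 2.02 and 29.9 CPM (14.8-fold lower, 10.8 to 20.8). BBX31 had 0 and 102 counts, 26.8-fold lower against a floor of 3 counts. SPA1, a partner of COP1, stood at 17.0 and 102 CPM (5.97-fold lower, 5.33 to 6.69), while COP1 itself stood at 24.2 and 36.2 CPM.

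**Figure D3:**
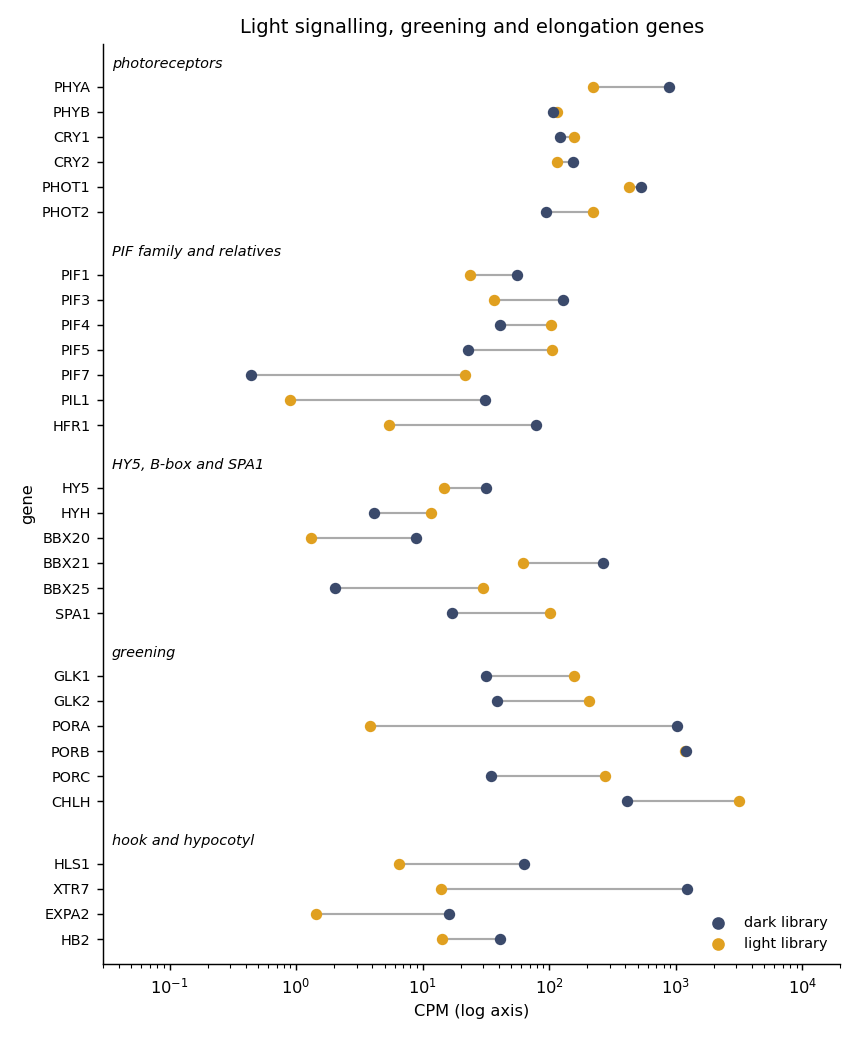
Levels of selected light signalling, greening and elongation genes in CPM on a log axis, with the dark library as dark blue points and the light library as yellow points, 1 library each. For PORA, XTR7, PIL1 and HFR1 the dark point lies far to the right of the gene's light point. For PIF7, BBX25 and the chlorophyll synthesis gene CHLH it lies to the left.

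Most greening genes were lower in the dark library, and the protochlorophyllide reductase gene PORA was far higher. The 20 measured chlorophyll synthesis genes included 16 lower and 1 higher, with a median log2 ratio of −2.25, and their summed level was 4240 CPM against 11338 CPM. PORA (AT5G54190, TAIR10.1 chromosome 5, 21990864 to 21992814, minus strand) makes the reductase that accumulates in etioplasts. It stood at 1028 CPM in the dark and 3.85 CPM in the light, 267-fold higher (95% interval 219 to 329). Its relatives differed from it. PORB, the reductase used in both conditions, stood at 1213 and 1188 CPM, a ratio of 1.02. PORC, the reductase of green tissue, stood at 34.9 and 278 CPM (7.97-fold lower, 7.37 to 8.62). CHLH, a subunit of the magnesium chelatase, stood at 410 and 3181 CPM, and HEMA1, which starts tetrapyrrole synthesis, at 105 and 549 CPM. GUN4, a chelatase cofactor, had 0 and 3 counts and did not pass the filter; 73.0% of its exon bases are overlapped by another counted gene.

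The antenna list had 20 of 20 measured genes at least 2-fold lower in the dark library, and none higher, with a median of −3.59. Their summed level was 9887 CPM against 96016 CPM, 9.71-fold lower (95% interval 9.67 to 9.76). LHCB1.4, an antenna protein of photosystem II, stood at 11.8 CPM in the dark and 4554 CPM in the light (386-fold lower, 340 to 439). LHCA1, an antenna protein of photosystem I, stood at 142 and 6712 CPM (47.3-fold lower, 45.6 to 49.1). LHCB1.3 stood at 5087 and 21546 CPM, 4.24-fold lower; its neighbours LHCB1.1 (29.7 and 7207 CPM) and LHCB1.2 (137 and 7610 CPM) lie beside it on chromosome 1. LHCB1.1 and LHCB1.3 are uncertain because 20.5% and 22% of their 50-base words occur in other genes. The photosystem and Calvin cycle list had 29 of 30 genes lower, a median of −2.95 and a summed level 5.72-fold lower. RBCS1A, a Rubisco small subunit gene, stood at 6806 and 21132 CPM, and RBCS1B at 21.0 and 856 CPM, and the 4 small subunit genes ranged from 2.14-fold (RBCS2B) to 40.7-fold (RBCS1B) lower. The list of light-inducible protection and greening factors had 6 of 9 lower and 1 higher, with a median of −1.67. ELIP1, an early light-inducible protein gene, was the higher one at 28.7 and 13.5 CPM. The greening factor genes GLK1 and GLK2 were 4.98-fold and 5.32-fold lower, at 31.6 against 157 CPM and 38.6 against 206 CPM.

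The promoters of LHCA1 and PORA, greening genes with ratios in opposite directions, are given as the 250 bases before the annotated start, from RefSeq TAIR10.1, 5′ to 3′ on the gene's strand, with motif matches in capitals. LHCA1 (chr3:20341177-20341426, minus strand) holds 2 I-box matches (GATAAG or its complement CTTATC). PORA (chr5:21992815-21993064, minus strand) holds 1 evening element (AAATATCT) and 1 I-box. A match describes the letters only. Promoters of the antenna genes LHCB1.1, LHCB1.3, LHCB1.4 and LHCB3 and of RBCS1A were also read, and they hold 0 I-box and 0 evening element matches. The promoter of RCA, the Rubisco activase gene, was read as well and holds 1 I-box and 0 evening element matches.
LHCA1: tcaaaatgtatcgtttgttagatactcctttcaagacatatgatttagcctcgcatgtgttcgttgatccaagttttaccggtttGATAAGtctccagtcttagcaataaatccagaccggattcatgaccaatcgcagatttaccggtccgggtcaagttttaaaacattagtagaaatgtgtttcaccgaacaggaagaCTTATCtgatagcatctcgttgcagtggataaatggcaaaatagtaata
PORA: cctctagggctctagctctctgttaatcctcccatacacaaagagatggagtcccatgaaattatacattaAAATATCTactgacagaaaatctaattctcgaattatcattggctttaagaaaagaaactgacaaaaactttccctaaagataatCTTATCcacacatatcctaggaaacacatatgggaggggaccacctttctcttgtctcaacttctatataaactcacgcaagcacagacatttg
Searched on both strands, the I-box was found in 27.5% of the promoters of the 51 antenna, photosystem and Calvin cycle genes, 12.3% of all 27444 protein-coding promoters, 16.3% of those at least 4-fold lower in the dark library and 17.7% of those at least 4-fold higher. Promoters of genes past 4-fold in either direction thus held it at similar shares. The evening element was found in 7.32% of promoters at least 4-fold lower, 4.23% of those at least 4-fold higher and 4.79% of all. Widening the window to 300 bases with 50 past the start raised the antenna share to 43.1% and the overall share to 14.7%.

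Genes of the apical hook and hypocotyl list were mostly higher, and the list was not split into genes that promote and genes that restrain growth. Of 21 apical hook and hypocotyl genes 14 were higher and 3 lower, with a median of 1.52. XTR7, a xyloglucan-modifying enzyme gene used as a shade and etiolation marker, stood at 1223 CPM in the dark and 14 CPM in the light (87.2-fold, 78.6 to 97.0). Overlap of 31.6% of its exon bases by another counted gene leaves this value uncertain. HLS1, which controls hook formation, stood at 63.6 and 6.53 CPM (9.75-fold, 8.30 to 11.5). The bHLH gene IBH1 stood at 60.8 and 6.72 CPM (9.04-fold, 7.71 to 10.7). EXPA2, an expansin that loosens walls, stood at 16.0 and 1.44 CPM (11.2-fold). AGP7, an arabinogalactan protein, stood at 351 and 44.2 CPM (7.94-fold). The homeobox gene HB2 stood at 41.1 and 14.3 CPM (2.87-fold). Not all expansins followed, since EXPA10 stood at 19.2 and 78.1 CPM (4.07-fold lower) and EXPA1 at 139 and 396 CPM.

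Carbon starvation genes showed a partial pattern. Of 24 dark-induced and sugar-starvation markers 12 were higher and 2 lower, with a median of 1.06. ASN1 (AT3G47340), the asparagine synthetase that stores nitrogen as carbon runs short, stood at 271 CPM in the dark and 9.29 CPM in the light (29.1-fold, 25.6 to 33.3). DIN1, a classic dark-inducible gene, stood at 193 and 9.60 CPM (20.1-fold). EXL2 stood at 634 and 102 CPM (6.23-fold), and GDH1, a glutamate dehydrogenase, at 96.8 and 38.9 CPM (2.49-fold). DIN10, another dark-inducible gene, did not differ in that way, at 113 and 141 CPM. The trehalose phosphate synthase-like genes TPS8, TPS9, TPS10 and TPS11 were 2.2-fold to 3.42-fold higher. The starvation-linked bZIP genes differed from these, with BZIP11 2.23-fold and BZIP63 2.17-fold lower.

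Branched-chain amino acid breakdown genes were divided. Of 18 genes in the list 6 were higher and 2 lower, with a median of 0.29. BCAT2, a branched-chain aminotransferase, stood at 45.8 and 0.777 CPM (59.0-fold higher, 38.0 to 97.0). LKR, the first lysine breakdown enzyme, stood at 169 and 23.6 CPM (7.16-fold), and IVD, isovaleryl-CoA dehydrogenase, at 137 and 22.8 CPM (6.02-fold). BCAT1 was 3.90-fold lower, at 5.71 and 22.3 CPM. The electron transfer genes ETFQO, ETFALPHA and ETFBETA stood within 1.25-fold. Autophagy genes had smaller ratios, with 7 of 17 higher, 0 lower and a median of 0.94. ATG8F, which coats autophagosomes, stood at 123 and 42.5 CPM (2.90-fold) and ATG8G at 10.8 and 3.42 CPM (3.15-fold). Of 11 measured leaf senescence genes 4 were higher and 1 lower: SEN4 stood at 336 and 41.1 CPM (8.17-fold) and NAP, a senescence NAC factor, at 12.9 and 1.98 CPM (6.53-fold), while SAG12, a late marker, had 0 counts in both. Of 21 starch and sucrose genes 2 were higher and 10 lower. DPE2, needed for use of maltose at night, stood at 57.1 and 310 CPM (5.43-fold lower), BAM3, a starch-degrading amylase, at 2.46 and 54.8 CPM (22.3-fold lower; 25.2% of its exon bases are overlapped), and SUS3, a sucrose synthase, at 57.6 and 14.5 CPM (3.99-fold higher).

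Seed storage proteins had the highest list median. All 13 seed storage protein genes were at least 4-fold higher in the dark library, with a median of 6.84, and their summed level was 7298 CPM against 26.0 CPM (281-fold, 95% interval 260 to 303). Storage globulins and albumins are made in developing seeds and used up after germination. Because the seedlings' age at wrapping and the time under foil are not given in the sources used here, a difference in developmental stage and the lack of light cannot be told apart in the seed reserve ratios. CRA1 (AT5G44120), a cruciferin, stood at 3648 and 14.2 CPM (257-fold, 232 to 286). CRU3, a related cruciferin, stood at 2756 and 4.08 CPM (675-fold, 558 to 826). SESA5, a 2S albumin, stood at 311 and 0.855 CPM (363-fold, 240 to 580). The tandem albumin genes SESA1 to SESA4 had log2 ratios of 6.81, 7.01, 7.90 and 4.41. Their absolute level in the dark library ranged from 9.99 CPM for SESA4 to 131 CPM for SESA2.

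Of 11 oil body genes 9 were higher, with a median of 4.75, and 2 lay between 2-fold lower and higher. OLEO1, an oleosin, stood at 94.8 and 0.971 CPM (97.6-fold, 65.9 to 151). OLEO3 rested on 1444 and 3 counts, so its ratio of 610 has an interval of 208 to 2960. All 16 late embryogenesis and seed vacuole genes were higher, with a median of 4.67. EM1, an abundant seed hydration protein, stood at 189 and 2.06 CPM (91.8-fold, 70.0 to 123). TIP3;1, a storage vacuole channel, stood at 68.9 and 1.90 CPM, and 24.6% of its exon bases are overlapped. Master regulators were less uniform: of 12 genes 7 passed the filter, with 3 higher and 1 lower. ABI3, a B3 factor of seed maturation, stood at 25.3 and 1.52 CPM (16.7-fold, 12.1 to 23.8) and ABI5 at 44.2 and 2.80 CPM (15.8-fold, 12.4 to 20.4). DOG1, a dormancy gene, lay the other way at 0.345 and 4.66 CPM (13.5-fold lower). The embryo identity gene LEC1 had 0 counts in both libraries, FUS3 had 5 and 2, and LEC2 had 0 and 6.

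**Figure D4:**
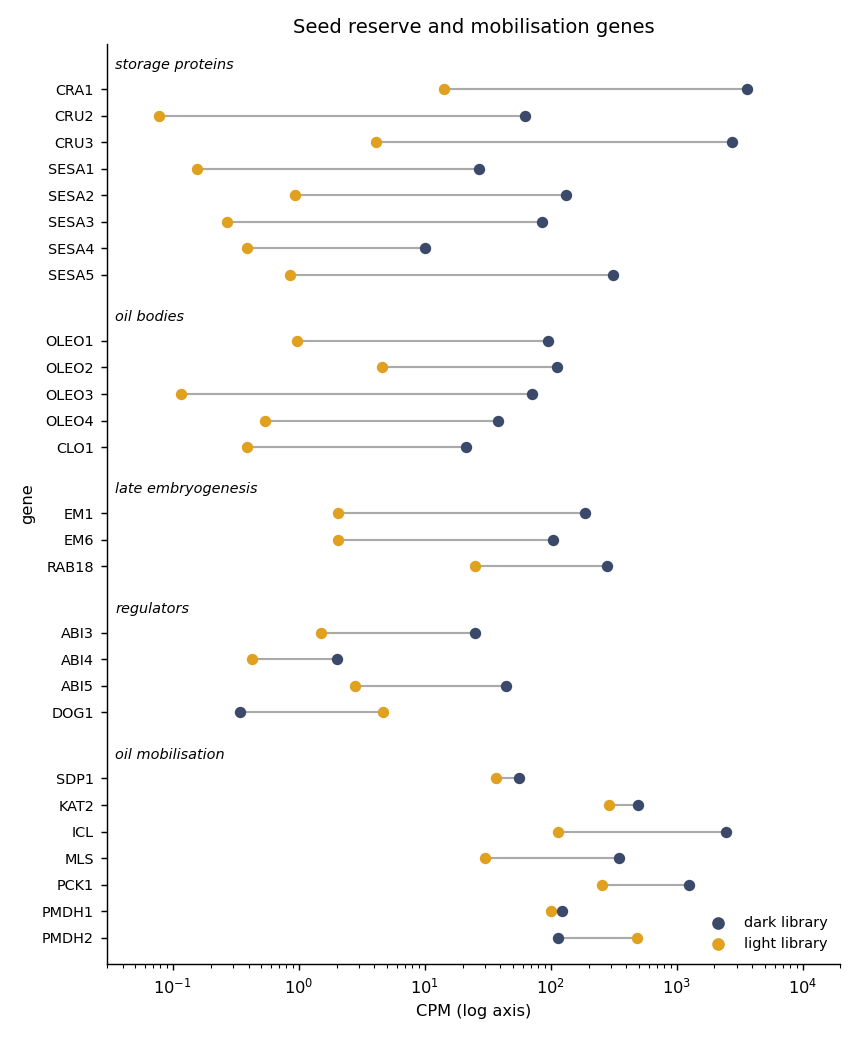
Levels of seed reserve, seed regulator and oil mobilisation genes in CPM on a log axis, dark library in dark blue and light library in yellow, 1 library each. All storage protein and oleosin points lie further right in the dark library, while PMDH2 and DOG1 lie further left.

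Promoters are shown for 3 of these genes, CRA1, SESA5 and OLEO3, and for ASN1 of the starvation list, because seed genes commonly carry RY repeats (CATGCA) and G-boxes (CACGTG) in their proximal promoters. Capitals mark RY, G-box and I-box matches on either strand, and RY matches can overlap each other. CRA1 is at chr5:17758337-17758586, minus strand, SESA5 at chr5:22239188-22239437, minus strand, OLEO3 at chr5:20819818-20820067, plus strand and ASN1 at chr3:17441432-17441681, minus strand.
CRA1: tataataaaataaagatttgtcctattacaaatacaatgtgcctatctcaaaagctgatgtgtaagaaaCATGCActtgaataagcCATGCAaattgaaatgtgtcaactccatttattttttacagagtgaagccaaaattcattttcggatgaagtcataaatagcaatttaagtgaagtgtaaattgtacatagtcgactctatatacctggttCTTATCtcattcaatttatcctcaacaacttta
SESA5: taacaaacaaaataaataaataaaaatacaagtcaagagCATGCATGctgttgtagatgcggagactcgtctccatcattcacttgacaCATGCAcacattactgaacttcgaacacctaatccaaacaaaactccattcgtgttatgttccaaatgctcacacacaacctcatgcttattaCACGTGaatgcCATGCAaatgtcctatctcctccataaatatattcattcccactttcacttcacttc
OLEO3: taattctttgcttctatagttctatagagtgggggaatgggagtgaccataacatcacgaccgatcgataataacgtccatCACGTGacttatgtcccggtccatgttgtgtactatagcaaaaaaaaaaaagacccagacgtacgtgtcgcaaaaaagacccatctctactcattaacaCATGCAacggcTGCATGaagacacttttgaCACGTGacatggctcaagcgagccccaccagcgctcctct
ASN1: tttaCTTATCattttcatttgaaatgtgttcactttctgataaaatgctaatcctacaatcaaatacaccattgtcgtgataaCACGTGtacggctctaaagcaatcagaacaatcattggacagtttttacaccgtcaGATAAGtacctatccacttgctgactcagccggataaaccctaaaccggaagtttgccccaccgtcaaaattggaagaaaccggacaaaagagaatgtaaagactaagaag
SESA5 holds 4 RY and 1 G-box matches, OLEO3 2 and 2, and CRA1 2 RY and 1 I-box, while ASN1 holds 1 G-box and 2 I-boxes and no RY. The printed promoters were picked from a larger set that was read. In that set EM1 holds 0 matches to any of these motifs, and EM6 holds 1 G-box and 0 RY. Among the 40 promoters of the seed storage, oil body and late embryogenesis genes, 62.5% held an RY and 55.0% a G-box, against 8.43% and 6.49% of all protein-coding promoters. Promoters at least 4-fold higher in the dark library held an RY in 17.2% and a G-box in 14.8% of cases. That set includes most of the 40 seed genes, so the shares are not separate. The shares were 9.09% and 7.94% in promoters at least 4-fold lower, and 7.18% and 7.1% in those of genes under 2-fold. The G-box was also found in 19.6% of the antenna, photosystem and Calvin cycle promoters, which belong to genes lower in the dark library.

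Oil mobilisation genes were higher at a subset of steps. Of 21 measured genes 7 were higher and 1 lower, with a median of 0.75, and their summed level was 6619 CPM against 2434 CPM. ICL, isocitrate lyase of the glyoxylate cycle, stood at 2469 and 116 CPM (21.4-fold, 20.6 to 22.2). MLS, malate synthase, stood at 350 and 30.1 CPM (11.6-fold), and PCK1, which turns oil carbon into sugar, at 1260 and 256 CPM (4.93-fold). The beta-oxidation genes in between stood closer, with KAT2 at 494 and 292 CPM and the lipase gene SDP1 at 56.5 and 36.6 CPM. PMDH2, a peroxisomal malate dehydrogenase, was the 1 lower gene, at 115 and 489 CPM (4.26-fold). The rRNA share and the tissue markers given here differed between the same 2 libraries, and their part in the seed reserve ratios was not tested.

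Aliphatic glucosinolate synthesis was the lowest list. Of 20 measured genes 19 were at least 4-fold lower in the dark library, with a median of −4.99, and their summed level was 78.4 CPM against 2256 CPM (28.8-fold lower, 27.4 to 30.3). These sulphur compounds are derived from methionine and deter herbivores. CYP79F1, which commits chain-elongated methionine to the pathway, had 1 and 5160 counts (interval 731 to 1.61e+05-fold lower). CYP83A1, the next enzyme, stood at 0.541 and 315 CPM (582-fold lower, 325 to 1166). MAM1, which elongates the methionine chain, stood at 2.46 and 323 CPM (131-fold lower). Their regulators were lower as well: MYB28 stood at 4.53 and 64.5 CPM (14.2-fold lower, 11.5 to 17.8). MYB29 had 0 and 836 counts, 220-fold lower against a floor of 3 counts. AOP3 was the 1 higher member, with 10 and 0 counts.

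The indole branch did not share that pattern. Of 16 indole glucosinolate and camalexin genes 4 were higher and 4 lower, beside 15.8% and 19.4% of all genes, with a median of −0.10. CYP79B2, which starts both pathways from tryptophan, stood at 72.2 and 106 CPM, and CYP83B1 at 150 and 162 CPM. IGMT1, an indole glucosinolate methyltransferase, stood at 91.3 and 8.20 CPM (11.1-fold higher, 9.66 to 12.9). Hydrolysis genes were mixed, with 4 of 15 higher and 4 lower, beside the same shares of all genes. NSP2, a nitrile specifier protein, stood at 72.9 and 0.194 CPM (375-fold higher, 161 to 1158), and ESM1, an epithiospecifier modifier, at 9.89 and 613 CPM (62.0-fold lower, 54.0 to 71.6). The list medians of the photoreceptor, indole, myrosinase and cytokinin lists change sign under scaling by library totals.

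Flavonoid genes were mainly lower, with 13 of 22 lower, 1 higher and a median of −1.62. This is the list in which the 2 Col-0 libraries of the other table also lay farthest apart by count, with 7 of 24 genes past 2-fold. DFR, which makes anthocyanin precursors, stood at 2.02 and 34.6 CPM (17.1-fold lower, 12.5 to 24.0), and CHS, the first flavonoid enzyme, at 109 and 355 CPM (3.27-fold lower). Carotenoid genes had 12 of 15 lower and 0 higher; LUT5 stood at 9.60 and 125 CPM (13.1-fold lower) and PSY, which starts the pathway, at 61.9 and 221 CPM (3.57-fold lower). Phenylpropanoid genes had 5 of 19 higher and 4 lower, beside 15.8% and 19.4% of all genes. PAL4 stood at 108 and 14.5 CPM (7.48-fold higher) and FAH1 at 34.0 and 207 CPM (6.07-fold lower). Triterpene and sesquiterpene genes went the other way, with 7 of 10 measured genes higher, 0 lower and a median of 2.58. MRN1, the marneral synthase, stood at 290 and 20.4 CPM (14.2-fold, 13.0 to 15.6), and THAD of the thalianol pathway at 213 and 24.2 CPM (8.79-fold, 8.08 to 9.57). The 3 thalianol genes and the 3 marneral genes of the list are each adjacent on chromosome 5, with log2 ratios of 2.65 to 3.13 and of 2.50 to 3.83. Next to the listed thalianol genes, AT5G47980 had a log2 ratio of 2.3, and whether it belongs to the same gene cluster was not examined. AT5G47970 beyond it and AT5G48020 on the other side had −0.48 and −0.16. Beside the marneral genes, AT5G42560 and AT5G42570 had 1.07 and 1.11, past 2-fold themselves, and AT5G42620 had −0.04.

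Hormone lists differed in direction. Abscisic acid genes had 13 of 24 measured genes higher and 5 lower, with a median of 1.26. RD29B, a late responder to the hormone, stood at 384 and 17.4 CPM (22-fold, 20 to 24.3), and HAI1, a phosphatase of the response, at 40.4 and 2.64 CPM (15.3-fold, 11.9 to 19.9). NCED4 was 13.8-fold lower, at 4.48 and 61.8 CPM; this locus is also listed among the carotenoid genes as CCD4. NCED3, a synthesis gene, stood at 30.9 and 16.5 CPM (1.88-fold).

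Gibberellin genes had 6 of 24 higher and 3 lower, beside 15.8% and 19.4% of all genes, with a median of 0.54. GASA4, a gibberellin-responsive peptide gene, stood at 2609 and 391 CPM (6.67-fold, 6.53 to 6.81). GA20OX3, a synthesis gene, stood at 3.99 and 0.194 CPM (20.5-fold, 8.44 to 64.9), while GA3OX1, which makes the active hormone, stood at 33.6 and 23.2 CPM. RGL3, a growth-restraining DELLA, stood at 16.8 and 4.27 CPM (3.94-fold). GA2OX1 had 1 and 32 counts and lay 25.3-fold lower with an interval of 4.22 to 1029. GASA6, at 74.1 and 215 CPM, has 22.6% of its exon bases overlapped and is uncertain.

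Auxin genes had 9 of 25 higher and 2 lower, with a median of 0.52. IAA6 stood at 15.3 and 0.738 CPM (20.7-fold, 13.1 to 34.9) and IAA19, a fast responder tied to hypocotyl growth, at 126 and 18.4 CPM (6.86-fold, 6.22 to 7.59). YUC5, an auxin synthesis gene, stood at 0.689 and 5.28 CPM (7.67-fold lower). Brassinosteroid genes had 6 of 15 higher and 0 lower, with a median of 0.73; ROT3, a synthesis gene, stood at 96.7 and 26.9 CPM (3.6-fold). Ethylene genes had 9 of 23 higher and 3 lower, with a median of 0.80. At 4-fold 3 were higher and 3 lower, and the log2 ratios in the list ranged from −6.68 to 3.92. ACS5, an ethylene synthesis gene, stood at 32.4 and 2.06 CPM (15.7-fold, 11.9 to 21.2), and ACS6 at 17.3 and 99.1 CPM (5.72-fold lower). The receptor gene ERS2 stood at 53.2 and 16.0 CPM (3.33-fold).

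The jasmonate and salicylic acid lists had more genes lower than higher. Jasmonate genes had 9 of 23 lower and 1 higher, with a median of −0.47. LOX2, a lipoxygenase of the pathway, had 10 and 7538 counts (595-fold lower, 323 to 1241), and AOC2, a cyclase of it, stood at 0.345 and 70.9 CPM (206-fold lower, 99.6 to 512). VSP1 was the higher gene at 8.71 and 2.60 CPM. MYC2, the jasmonate master factor, had 0 counts in both libraries, and 98.5% of its exon bases are overlapped by another counted gene. Salicylic acid genes had 7 of 15 lower and 2 higher, with a median of −0.56, which was −0.31 with a filter of 50 counts. Their summed level was nevertheless slightly higher in the dark library, at 114 against 104 CPM. EDS5, a transporter needed for synthesis, stood at 20.6 and 7.65 CPM, and PAD4, a defence regulator, at 5.07 and 11.4 CPM. Cytokinin genes had 3 of 18 higher and 3 lower, near the shares over all genes (15.8% and 19.4%), with a median of −0.05. ARR5 stood at 24.1 and 12.8 CPM. CKX5, a cytokinin oxidase gene, stood at 20.4 and 1.86 CPM (11-fold) with 28.8% of its exon bases overlapped, which makes it uncertain.

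**Figure D5:**
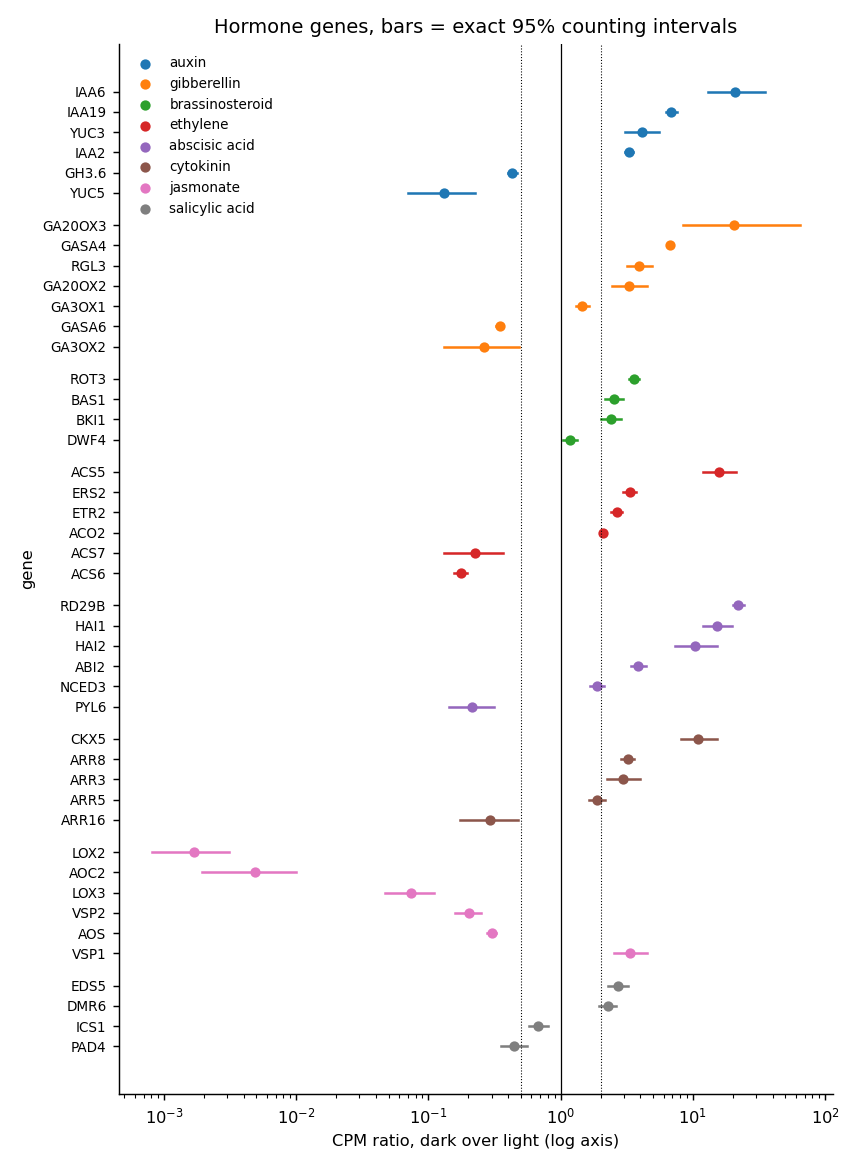
Ratio of dark over light CPM for selected hormone genes on a log axis, coloured by hormone; bars are exact 95% counting intervals, the solid line marks equal levels and the dotted lines 2-fold. RD29B, HAI1, ACS5 and IAA6 lie far to the right and LOX2 and AOC2 far to the left.

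Some markers of tissues and stages also differed between the libraries. Of 17 root markers 3 were higher and 4 lower, near the shares over all genes (15.8% and 19.4%). CASP1, of the endodermal barrier, stood at 154 and 32.4 CPM. NRT2.1, a nitrate transporter, had 0 and 331 counts (87.1-fold lower against a floor of 3 counts). The mesophyll, epidermis and guard cell list had 2 of 16 higher and 9 lower, with CA1, a carbonic anhydrase, at 91.1 and 3612 CPM. Stomatal lineage genes were lower, SPCH at 1.67 and 9.64 CPM and FAMA at 3.40 and 12.5 CPM. Epidermal PDF1 stood at 510 and 217 CPM. The 13 cell division genes had 0 higher and 5 lower, with a median of −0.92. Of 10 measured shoot meristem and flower genes 6 were higher and 1 lower; KNAT1, a meristem homeobox gene, stood at 63.9 and 19.6 CPM. Of 13 measured heat and oxidative stress genes 3 were higher and 4 lower, beside 15.8% and 19.4% of all genes, with HSP17.6A at 27.8 and 0.311 CPM. Whether these tissue shares account for the list results above was not tested.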

How the data were processed

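Transcripts were measured by RNA-seq in 6 libraries, and the dark and light libraries, 1 each, were compared. The authors deposited the dark and light values as unscaled read counts for each gene (per the file headers). The other table holds a signal, normalised read counts per the file headers, and was used only for the spread between 2 Col-0 libraries. HISAT2, featureCounts, edgeR and the TAIR10 build are named in the submitters' processing notes without settings; whether counting used strand, and which read layout (50 or 150 bases) each library had, are not given in the sources used here. No column went unmapped (0).

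Counts were scaled with edgeR 4.0.16 TMM factors (R 4.3.3), and ratios were formed with a prior count of 2 over genes with at least 10 counts. Intervals are exact Clopper-Pearson at 95% (SciPy 1.17.1); reads are not independent molecules after PCR, so they cover counting error only. For genes with 0 counts a floor of 3 counts per library was used, with the other library's count taken as exact. The ratio and interval steps were run on 1 simulated pair of libraries with Poisson counts and few changed genes. That run cannot speak to the scaling of these data, in which 35.1% of genes lay past 2-fold. Genes with at least 20% of exon bases overlapped by another counted gene, or of 50-base words shared, were called uncertain. Shared words were counted only for genes of the lists and for some genes with extreme ratios. FRO6, ASN2 and the unlisted neighbours of the thalianol and marneral genes did not have this check. All 32548 IDs matched the RefSeq TAIR10.1 annotation, from which coordinates and the 250-base promoters were read; the files themselves hold no coordinates. Promoter motifs were searched on both strands.

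Members and lists were chosen with earlier results of these data known. Named genes were the 10 highest and the 10 lowest ratios among genes that carry a name in the reference and whose mean reached 20 CPM. To these came the 4 largest ratios in every list where the mean reached 5 CPM, 25 genes always named, and members past 2-fold of 3 lists. Not all of them are printed in the text: CRU2, BCAT4, FMOGS-OX3, CYP706A6 and SIG5 are among those left out. Other genes were named after their values were seen. Depth was 18798088 and 27831231 counts: the 14007 genes with at least 100 counts in each library have intervals within a factor of 1.33. Alternatives changed the scaling (library totals, DESeq2 1.42.0 size factors), prior count, filter, threshold and promoter window.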

Additional observations from a re-analysis of the deposited data

How the results depend on the processing

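No paired analysis was possible because each condition has 1 library, and no replicate could be left out. Raising the threshold to 4-fold left 1099 genes higher and 1346 lower; the other alternatives kept both counts within 1.5 times. Scaling by library totals moved nearly every ratio upward by about the shift of the overall median, and the HY5 group median then lay at −0.84. Over 304 recomputed medians of 38 lists, 0 lists called at 2-fold reversed, 5 medians lost 2-fold and 10 changed sign, the last among the photoreceptor, indole, myrosinase and cytokinin lists. With no filter the meristem and flower median was 0.01 and with a filter of 50 counts 0.57; that filter moved the mesophyll, epidermis and guard cell median to −0.76 and the jasmonate median to −0.28. Library totals brought the autophagy and ethylene medians to 1.16 and 1.03. Of 1238 recomputed ratios of 177 named genes, 0 changed sign and 6 lost 2-fold (PHOT2, PAD4 and WRKY53). With 300-base promoters the RY share was 8.02% under 2-fold and 9.72% in all; the G-box share was 10.2% at 4-fold lower, 8.49% under 2-fold and 7.68% in all; the I-box share was 43.1% in antenna and photosystem genes, 20.8% at 4-fold higher, 21.2% at 4-fold lower, 13.5% under 2-fold and 14.7% in all; and the evening element share was 5.67% under 2-fold and 5.65% in all. The window itself is longer, which is the only change. A filter of 50, chosen after seeing the data, left 148 genes past 2-fold between the Col-0 libraries. Low counts limit ratios of genes near 0, and the cause of differences between the conditions was not tested.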

Other observations

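Several gene groups outside the lists also differed, and they were picked after their values were seen. Over all 21128 genes the shares were 15.8% higher and 19.4% lower. Pentatricopeptide repeat genes, which process organelle RNA, had 0 of 254 at least 2-fold higher and 110 lower, with a median log2 ratio of −0.92. Genes annotated as ribosomal proteins had 7 of 315 higher and 133 lower, also with a median of −0.92. Resistance genes of the NBS-LRR type had 7 of 121 higher and 53 lower, with a median of −0.74. Homeobox genes had 23 of 62 higher and 10 lower, the latter near the share over all genes, with a median of 0.54. The counts of these families are given under TMM scaling only, and the medians of −0.92 lie just short of 2-fold. Scaling by library totals moves nearly every ratio upward, so the numbers of lower genes depend on the scaling.

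Of 46 miRNA loci past the filter, 26 were higher and 9 lower, with a median of 1.18 over the miRNA class. Over all genes 15.8% were higher and 19.4% lower, and the lower miRNA loci lie near that share. MIR156c, of the family that marks the juvenile phase, had 210 and 18 counts (14.8-fold, 9.12 to 25.4), and MIR156a had 81 and 17 (6.04-fold, 3.55 to 10.9). MIR171b had 48 and 1 counts, and MIR850 had 0 and 249. These counts are of precursor loci and few in number, and stage and darkness cannot be told apart in them, since the age at wrapping is unknown here.

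Single genes with high levels included DYL1, a dormancy-associated gene, at 1373 and 40.3 CPM (34.1-fold, 32.0 to 36.3). SOM, a germination regulator, stood at 75.1 and 1.90 CPM (39.4-fold), HIS1-3, a linker histone, at 275 and 6.64 CPM (41.4-fold) and AT5G35660, a glycine-rich protein gene, at 870 and 1.4 CPM (622-fold). In the light library, THI1, of thiamine synthesis, stood at 3169 CPM against 90.5 CPM (35.0-fold lower in the dark library). CDSP32, a plastid thioredoxin, stood at 6.10 and 360 CPM, and ASN2, a second asparagine synthetase, at 18.8 and 338 CPM (18.0-fold lower), opposite in direction to ASN1.

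Some of the most extreme ratios belonged to genes of no list. ENODL1, an early nodulin-like gene, stood at 115 and 0.272 CPM (423-fold higher, 205 to 1054), and M17, a late embryogenesis gene, at 195 and 1.4 CPM (139-fold higher). FRO6, a ferric reductase gene, had 3 and 1040 counts (274-fold lower, 93.4 to 1329).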
